A study of Oryza sativa Japonica Group with 6 samples.

Results

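The genes described here are 10 genes of nitrogen assimilation and asparagine synthesis in rice (Oryza sativa, Japonica group), out of 37863 genes in the deposited table. They are a pair of asparagine synthetases, the glutamine synthetases GS1;1, GS1;2 and GS2, an NADH-dependent and a ferredoxin-dependent glutamate synthase (NADH-GOGAT and Fd-GOGAT), a nitrate reductase, a nitrite reductase and the ammonium transporter AMT1;1. The genes were chosen by enzyme function from a list of identifiers drawn up with the measured counts of the OsWRKY65-2 and WT libraries already known, so the differences between genotypes are given below as a description, with fold changes and standard errors, and no p-value of theirs is given; where they are counted among called genes, nothing is supported with the count. All 10 genes had counts in every library and all 10 passed the filter on low counts.

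Leaves of seedlings aged 14 days, grown on MS medium under long days, were profiled by polyA RNA sequencing in 3 libraries of OsWRKY65-2, a transgenic rice line overexpressing the transcription factor OsWRKY65, and 3 libraries of wild type (WT). OsWRKY65-2 is a single line. The sources used here do not name the promoter of its transgene or the number of plants behind a library. No label ties the replicates to separate plants, so p-values measure only the spread between these libraries, which may be technical. The WT columns are headed by a code absent from the labels, and were assigned to WT since no other columns were left for those samples and their numbers match. Every direction below rests on that reading.

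Plants take up nitrogen as nitrate or ammonium. Nitrate is reduced to nitrite by nitrate reductase in the cytosol and then to ammonium by nitrite reductase in the plastid. Ammonium, including that released by photorespiration in leaves, is bound to glutamate by glutamine synthetase, and glutamate synthase passes the amide group on to make new glutamate. In leaves the plastid forms GS2 and Fd-GOGAT carry most of this cycle, while the cytosolic GS1 forms and NADH-GOGAT are best known from roots, vascular tissue and nitrogen remobilization. Asparagine synthetase moves the amide group from glutamine to aspartate, and asparagine serves as a nitrogen-rich store and transport form.

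Total counts lay between 20585288 and 29720852 per library. OsWRKY65-2 replicate 3 stood apart: across genes, which are not independent replicates, r of log2 CPM was 0.603 to 0.695 between it and the rest, and 0.856 to 0.926 among the remaining libraries. It had no count for 2444 genes whose median in the other libraries exceeded 50, a number that was 28 to 198 for each other library. Fold changes of the 10 genes are therefore given with and without it. No gene is annotated as WRKY65, so the files do not settle which row is the transgene's target, and the labels could not be checked by it. The WRKY gene Os12g0116800, taken as OsWRKY65 in earlier work on these data after its values were seen, was at 69.5, 42.3 and 1039.6 CPM (counts scaled to library size with TMM normalization factors) in OsWRKY65-2 replicates 1 to 3, and at 4.16, 0 and 0 CPM in the WT libraries. The leaf label was met by its markers. A pair of Rubisco small subunit genes, the antenna protein CP29 and plastocyanin summed to between 12036.1 and 14364 CPM in OsWRKY65-2 and between 4990.3 and 9482.6 CPM in WT. Among 4 root markers, Lsi2 and NRT2.1 were at 0 in every library, RCc3 was below 1 CPM, and the silicon transporter gene Lsi1 was at 11.3, 10.8 and 8.29 CPM in OsWRKY65-2 and at 5.84, 8.28 and 4.47 CPM in WT, with the lowest library of the line just above the highest of WT. Lsi1 made up nearly all of the root sum of 8.29 to 12.3 CPM in OsWRKY65-2 and 4.47 to 8.28 CPM in WT, and the part of root markers in the results was not tested. The meristem gene OSH1 was at 6.5, 5.39 and 0 CPM in OsWRKY65-2 and at 0, 2.14 and 0 CPM in WT.

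The asparagine synthetase gene Os03g0291500 on chromosome 3, annotated as acting on asparagine synthesis after ammonium supply, was lower in OsWRKY65-2 than in WT in every library. It was at 99.7, 104.2 and 231.5 CPM in OsWRKY65-2 replicates 1 to 3, against 559.2, 540.3 and 882.6 CPM in WT replicates 1 to 3. The groups did not overlap, and the highest OsWRKY65-2 value came from replicate 3, the library that stood apart. Means were 145.1 ± 74.8 CPM in OsWRKY65-2 and 660.7 ± 192.4 CPM in WT (SD, n = 3 each). The log2 fold change was -2.19 ± 0.43 (SE, edgeR), or 4.55-fold lower. Without OsWRKY65-2 replicate 3 the mean of the line was 102.0 ± 3.17 CPM (SD, n = 2) and the log2 fold change -2.70 ± 0.30 (SE, edgeR), or 6.48-fold lower. In bulk leaf RNA, fewer cells of a type and less RNA per cell cannot be told apart.

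The second asparagine synthetase gene, Os06g0265000 on chromosome 6, annotated for long-distance transport of asparagine, had no such gap between genotypes. It was at 168.3, 201 and 106.5 CPM in OsWRKY65-2 and at 143.8, 150.3 and 167 CPM in WT. The groups overlapped, with replicate 3 of the line lowest and replicate 2 highest of all 6 libraries. OsWRKY65-2 replicates 1 and 2 lay above all WT libraries, replicate 1 by little. Its log2 fold change was 0.05 ± 0.27 (SE, edgeR) with all libraries and 0.26 ± 0.19 without OsWRKY65-2 replicate 3. With both genes summed on the length-corrected TPM scale, as deposited, asparagine synthetase transcripts averaged 181.5 ± 21.8 TPM in OsWRKY65-2 and 572 ± 95.4 TPM in WT (SD, n = 3 each), a ratio of 0.317, and the mean of OsWRKY65-2 replicates 1 and 2 was 174.6 TPM.

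The balance between these isoforms turned over in 2 of the OsWRKY65-2 libraries. Os03g0291500 made up 37.5%, 34.4% and 68.7% of asparagine synthetase TPM in OsWRKY65-2 replicates 1 to 3, against 79.7%, 78.4% and 84.2% in WT replicates 1 to 3. Os06g0265000 was therefore the more abundant form in OsWRKY65-2 replicates 1 and 2, while Os03g0291500 led in OsWRKY65-2 replicate 3 and in all WT libraries. The ratio of Os03g0291500 to Os06g0265000 in TPM was 0.599, 0.524 and 2.2 in OsWRKY65-2 and 3.93, 3.64 and 5.35 in WT.

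**Figure D1:**
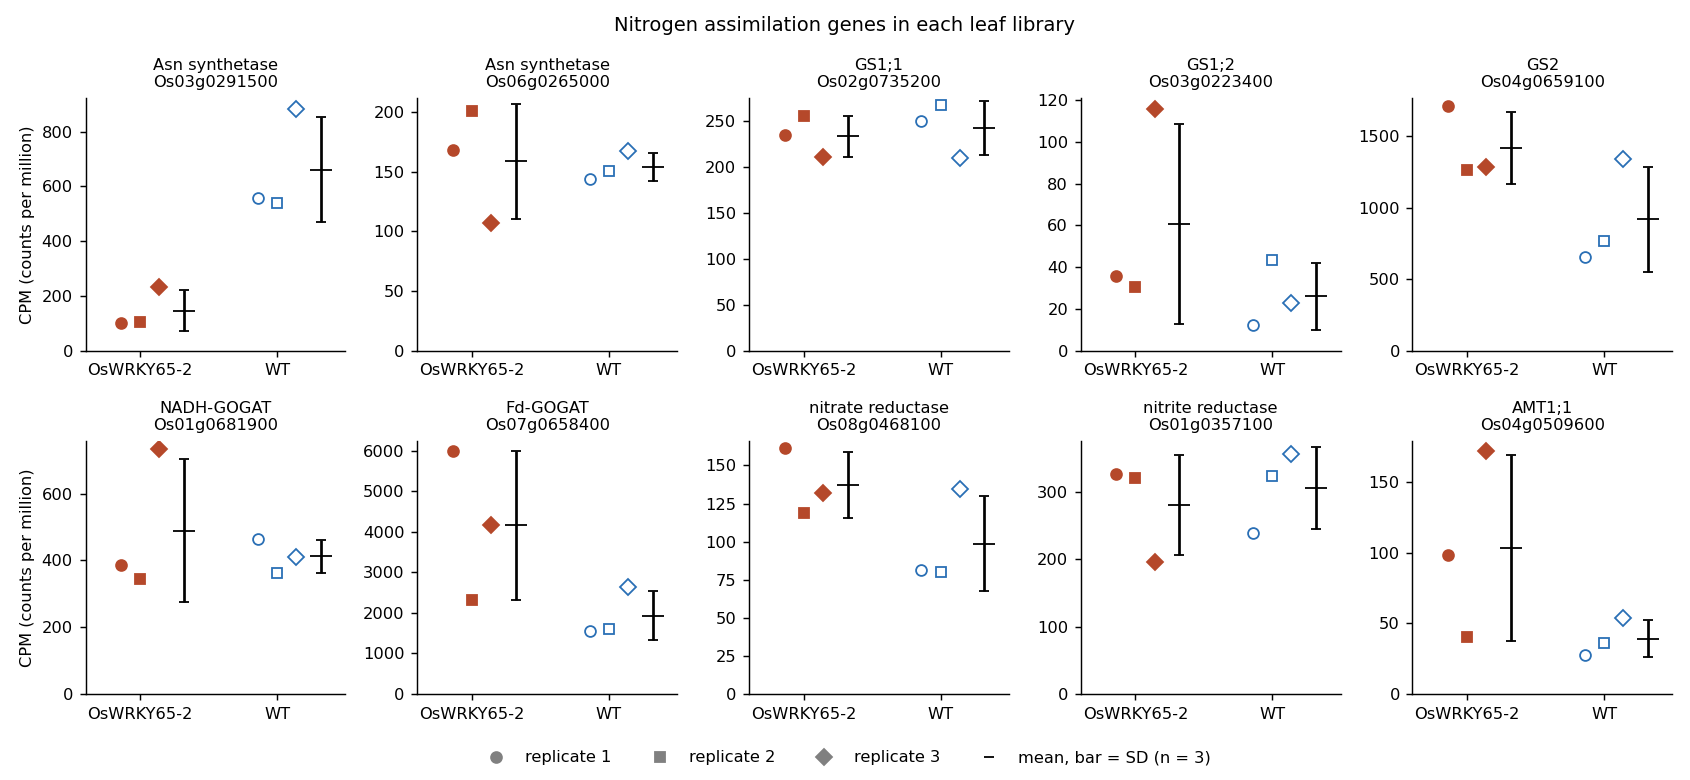
Normalized counts (CPM, linear axes from 0) of the 10 genes in each library, with OsWRKY65-2 left of WT in each panel, marker shapes for replicates 1 to 3, and black bars for the mean and SD (n = 3 each). The asparagine synthetase Os03g0291500 is the gene whose groups do not overlap, at 99.7 to 231.5 CPM in OsWRKY65-2 and 540.3 to 882.6 CPM in WT.

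The plastid glutamine synthetase GS2 (Os04g0659100, chromosome 4), which binds ammonium in the chloroplast, had the highest mean TPM of the 10 genes in both genotypes. It was at 1707.8, 1264.6 and 1281.6 CPM in OsWRKY65-2 and at 655, 765.3 and 1336.2 CPM in WT. WT replicate 3 lay within the OsWRKY65-2 values, whereas WT replicates 1 and 2 lay below all of them. The log2 fold change was 0.63 ± 0.33 (SE, edgeR) with all libraries and 0.69 ± 0.34 without OsWRKY65-2 replicate 3.

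The cytosolic form GS1;1 (Os02g0735200, chromosome 2), annotated for growth rate and grain filling, varied least between libraries. Its values were 234.3, 255.6 and 210.8 CPM in OsWRKY65-2 and 249.6, 267.7 and 209.8 CPM in WT, with fully overlapping groups. Its log2 fold change was -0.05 ± 0.19 (SE, edgeR), which is smaller than its error, and 0.01 ± 0.20 without OsWRKY65-2 replicate 3. The other cytosolic form, GS1;2 (Os03g0223400, chromosome 3), annotated for ammonium assimilation, was at 35.8, 30.3 and 115.8 CPM in OsWRKY65-2 and at 12.1, 43.4 and 22.7 CPM in WT. OsWRKY65-2 replicate 3 alone exceeded the WT range, and the WT libraries themselves differed 3.57-fold. The log2 fold change of 1.21 ± 0.69 (SE, edgeR) became 0.34 ± 0.46 without that library.

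As shares of glutamine synthetase TPM over 4 genes, GS2 held 85.2%, 80.3% and 77.9% in OsWRKY65-2 and 70%, 69.4% and 84.1% in WT. GS1;1 held 12.7%, 17.5% and 14% in OsWRKY65-2 and 28.5%, 26.1% and 14.2% in WT. In both shares WT replicate 3 lay within the range of the OsWRKY65-2 libraries. The remaining cytosolic gene, Os03g0712800, had 10 counts in WT replicate 1 and 0 counts elsewhere, where 3 counts, taken as the floor, correspond to between 0.0917 and 0.16 CPM (counting error only). Summed over the 4 genes, glutamine synthetase was at 1396.5 ± 156.7 TPM in OsWRKY65-2 and 1139.1 ± 223.5 TPM in WT (SD, n = 3 each), with overlapping groups, and the mean of OsWRKY65-2 replicates 1 and 2 was 1456.5 TPM.

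Fd-GOGAT (Os07g0658400, chromosome 7), the leaf form of glutamate synthase, which draws electrons from photosynthetic ferredoxin, had the most counts of the 10 genes. It was at 5990.6, 2316.9 and 4176.2 CPM in OsWRKY65-2 and at 1547.2, 1606 and 2626.7 CPM in WT. OsWRKY65-2 replicate 2 lay below WT replicate 3, and the line's own libraries differed 2.59-fold. Means were 4161.2 ± 1836.9 CPM in OsWRKY65-2 and 1926.6 ± 607 CPM in WT (SD, n = 3 each), and the log2 fold change was 1.11 ± 0.42 (SE, edgeR). It was 1.11 ± 0.43 without OsWRKY65-2 replicate 3 and 0.75 without OsWRKY65-2 replicate 1.

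NADH-GOGAT (Os01g0681900, chromosome 1), annotated for ammonium assimilation in seedling roots and tiller development, was at 386.5, 345.2 and 734 CPM in OsWRKY65-2 and at 462.5, 362.2 and 409.9 CPM in WT. OsWRKY65-2 replicate 3 was high, and replicates 1 and 2 lay within or just below the WT range. Its log2 fold change was 0.25 ± 0.33 (SE, edgeR) with all libraries and -0.17 ± 0.21 without OsWRKY65-2 replicate 3, so the sign turned with that library. Fd-GOGAT held 93.1%, 85.7% and 85.8% of glutamate synthase TPM over 4 genes in OsWRKY65-2, against 74.3%, 79.4% and 84% in WT. These shares did not overlap between genotypes, although WT replicate 3 came within 2 percentage points of the line. The ratio of Fd-GOGAT to NADH-GOGAT in TPM was 20.2, 8.75 and 7.41 in OsWRKY65-2 and 4.36, 5.78 and 8.35 in WT, where WT replicate 3 lay inside the range of the line.

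**Figure D2:**
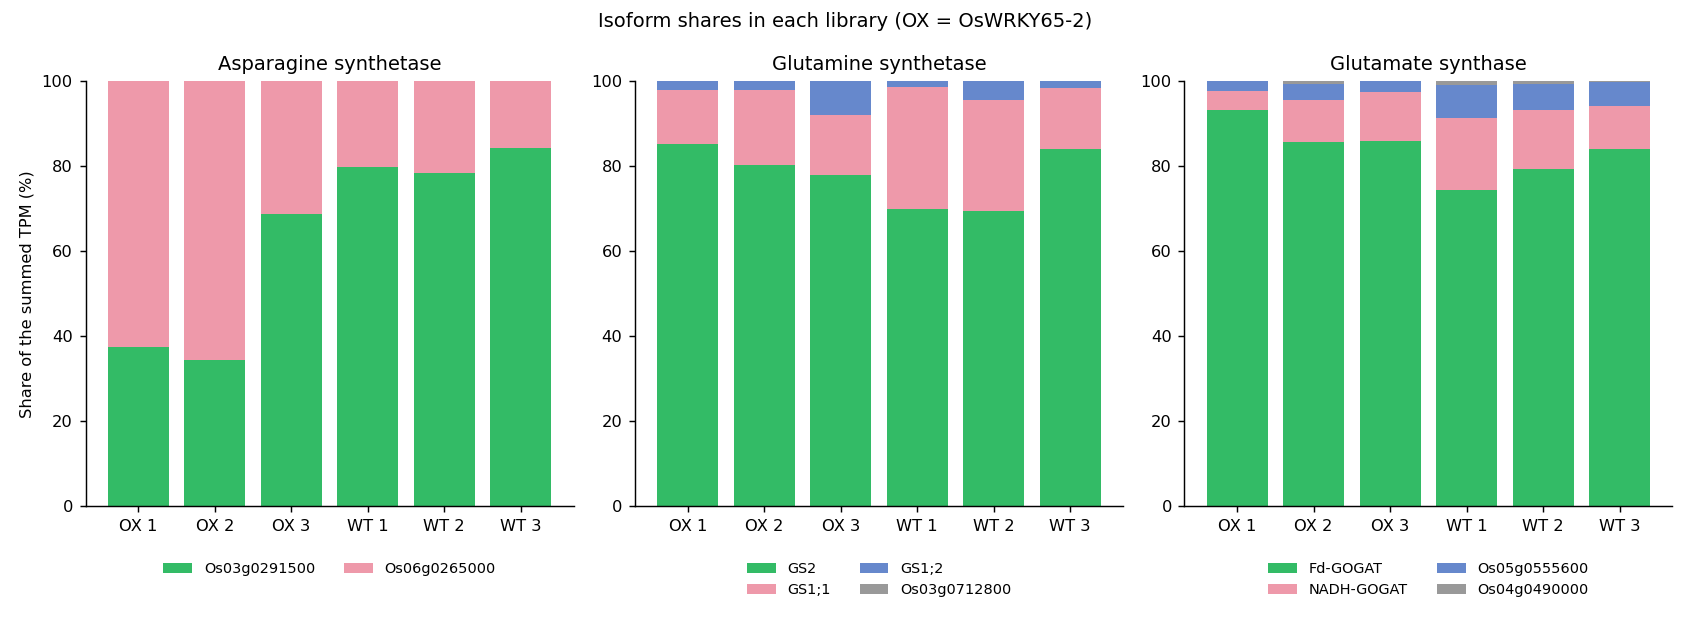
Share of each isoform (%) in the summed TPM of asparagine synthetase (2 genes), glutamine synthetase (4 genes) and glutamate synthase (4 genes), as stacked bars per library, with OsWRKY65-2 (OX) replicates left of WT replicates. Os03g0291500 is the smaller part of asparagine synthetase TPM in OX 1 (37.5%) and OX 2 (34.4%), and GS2 and Fd-GOGAT are the largest parts of their families in all 6 libraries.

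Nitrate reductase (Os08g0468100, chromosome 8), the cytosolic enzyme that makes nitrite, was at 161.3, 118.9 and 131.8 CPM in OsWRKY65-2 and at 81.2, 80.1 and 134.6 CPM in WT. As for GS2, WT replicate 3 lay among the OsWRKY65-2 libraries and the other WT libraries below them. The log2 fold change was 0.48 ± 0.28 (SE, edgeR), and 0.50 ± 0.28 without OsWRKY65-2 replicate 3. This gene and Os08g0468700 on the same chromosome are both annotated as similar to nitrate reductase and may share reads, so the split between them is uncertain.

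Nitrite reductase (Os01g0357100, chromosome 1), which turns nitrite into ammonium in the plastid, ordered the libraries differently from nitrate reductase. It was at 327.4, 321.8 and 195.8 CPM in OsWRKY65-2 and at 238.7, 324.3 and 356.7 CPM in WT, where OsWRKY65-2 replicate 3 was the lowest library and the groups overlapped. Its log2 fold change was -0.12 ± 0.28 (SE, edgeR), and 0.08 ± 0.23 without OsWRKY65-2 replicate 3. The difference from the fold change of nitrate reductase was not tested. Per length, nitrite reductase exceeded nitrate reductase in every library, at 2.48, 3.35 and 1.78 times its TPM in OsWRKY65-2 and 3.62, 4.8 and 3.15 times in WT.

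The gene listed as AMT1;1 (Os04g0509600, chromosome 4), a plasma membrane ammonium transporter, is annotated in the table only by similarity to a clone. It was at 98.5, 40.1 and 171.9 CPM in OsWRKY65-2 and at 27.7, 36 and 53.7 CPM in WT. OsWRKY65-2 replicates 1 and 3 lay above WT and replicate 2 within it, a 4.28-fold range inside the line. The log2 fold change was 1.40 ± 0.55 (SE, edgeR) with all libraries and 0.82 ± 0.40 without OsWRKY65-2 replicate 3.

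In OsWRKY65-2 the order of mean TPM was GS2 (1136.8), Fd-GOGAT (1024.4), GS1;1 (204.3), nitrite reductase (159.8), Os06g0265000 (95.1), NADH-GOGAT (92.5), Os03g0291500 (86.4), AMT1;1 (68.2), nitrate reductase (63.2) and GS1;2 (55.4). Ranges over libraries separated neighbours in this order only between Fd-GOGAT and GS1;1. In WT the order was GS2 (860.2), Fd-GOGAT (559.8), Os03g0291500 (464.1), GS1;1 (250), nitrite reductase (206.1), Os06g0265000 (107.9), NADH-GOGAT (93.4), nitrate reductase (54.9), AMT1;1 (30.2) and GS1;2 (28.7). There neighbours were separated between Os03g0291500 and GS1;1, between nitrite reductase and Os06g0265000, between NADH-GOGAT and nitrate reductase, and between nitrate reductase and AMT1;1. Os03g0291500 thus stood at place 7 in OsWRKY65-2 and at place 3 in WT.

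GS2, Fd-GOGAT, nitrate reductase and AMT1;1, grouped here after their values were seen, were highest in OsWRKY65-2 replicate 1 or 3, and in WT they were higher in replicate 3 than in replicates 1 and 2. WT replicate 3 was also the highest WT library for Os03g0291500, Os06g0265000 and nitrite reductase, so this holds for 7 of the 10 genes. The share of all genes highest in WT replicate 3 among the WT libraries was not counted, so nothing is read from the 7. GS1;2 and NADH-GOGAT were likewise highest in OsWRKY65-2 replicate 3. On the log2(CPM + 1) scale relative to the WT mean, WT replicate 3 was at 0.61 for GS2, 0.49 for Fd-GOGAT, 0.49 for nitrate reductase and 0.50 for AMT1;1. The clock gene LHY, which peaks around dawn, was at 404.7, 119.3 and 413.6 CPM in OsWRKY65-2 and at 119, 117.3 and 249.6 CPM in WT, high in the same libraries as Fd-GOGAT and AMT1;1. The 6 clock genes measured summed to between 2064.9 and 3193.3 CPM in OsWRKY65-2 and between 2029.6 and 2469.3 CPM in WT. On the log2 scale relative to the WT mean, LHY was at 0.71 in WT replicate 3. The clock genes GI, PRR1, PRR37, PRR73 and PRR59 were at 0.04, -0.05, 0.03, 0.14 and -0.13 there. In OsWRKY65-2, GI, PRR73 and PRR59 were, like LHY, lowest in replicate 2. PRR37 was lowest in replicate 3, and PRR1 was highest in replicate 2. The part of time of day in these levels was not tested.

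All 4 leaf markers had their highest WT value in WT replicate 3, and their sum, given above, was higher in every OsWRKY65-2 library than in any WT library. Set against the summed TPM of these markers, GS2 was at 7.78%, 5.97% and 5% in OsWRKY65-2 and at 7.91%, 9.56% and 8.39% in WT. Nitrate reductase was at 0.421%, 0.32% and 0.298% in OsWRKY65-2 and at 0.565%, 0.594% and 0.508% in WT. Both were thus lower in OsWRKY65-2 than in WT on this scale, GS2 by little between replicate 1 of each genotype. This is the reverse of their direction in CPM, where the groups overlapped, but it depends on the marker. A single Rubisco small subunit gene, Os12g0274700, made up 64.7%, 64.3% and 65.5% of the sum in OsWRKY65-2 and 56%, 52.8% and 63.4% in WT. Against each marker alone, GS2 was lower in OsWRKY65-2 against Os12g0274700, overlapped against CP29 and plastocyanin, and was higher against the other Rubisco gene, Os12g0292400, at 96.9%, 81.3% and 82.5% in OsWRKY65-2 and 59.2%, 66% and 79.5% in WT. Nitrate reductase was lower against 3 of the 4 markers and overlapped against Os12g0292400. Fd-GOGAT, at 8.46%, 3.39% and 5.04% in OsWRKY65-2 and 5.75%, 6.20% and 5.10% in WT, overlapped between genotypes on this scale and against each marker alone. AMT1;1, at 0.378%, 0.157% and 0.559% in OsWRKY65-2 and 0.275%, 0.37% and 0.277% in WT, overlapped in the same way. On the summed scale replicates 1 and 3 of the line lay above WT, replicate 1 by little, and replicate 2 below. This order did not hold against either Rubisco gene alone. Against Os12g0274700 replicate 1 of the line lay within WT, and against Os12g0292400 replicate 2 did. Both Rubisco genes carry the same annotation and may share reads, so the split between them is uncertain, as are values against either alone. Os03g0291500 was at 0.34%, 0.368% and 0.675% of the leaf markers in OsWRKY65-2 and at 5.02%, 5.04% and 4.14% in WT. Its groups did not overlap on this scale, nor against any of the 4 markers alone. The gene was lower and the marker sum higher in every OsWRKY65-2 library, so the gap on the summed scale was fixed in advance and tests nothing. The ratio to the leaf markers was added after the data were seen, and the part of the leaf markers in these differences was not tested.

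**Figure D3:**
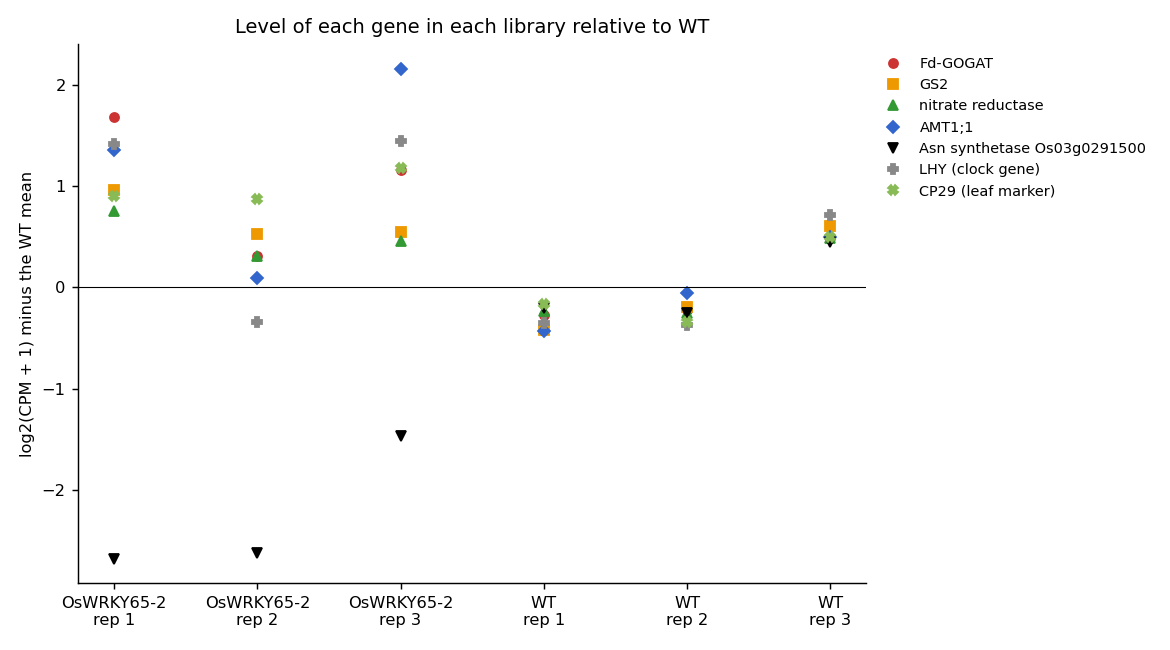
Level of 5 of the 10 genes, the clock gene LHY and the leaf marker CP29 in each library, as log2(CPM + 1) minus the WT mean, with the 3 OsWRKY65-2 libraries left of the 3 WT libraries. Fd-GOGAT, GS2, nitrate reductase and AMT1;1 lie above 0 in the OsWRKY65-2 libraries and in WT replicate 3, whereas Os03g0291500 lies at -2.68, -2.62 and -1.47 in OsWRKY65-2 replicates 1 to 3.

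Over all genes, edgeR's quasi-likelihood test called 0 of 23769 tested genes at a Benjamini-Hochberg adjusted p under 0.05, a percentage of 0, and so called none of the 10. The unadjusted p was under 0.05 for 1010 genes higher and 537 lower in OsWRKY65-2, and DESeq2 called 419 higher and 303 lower. The 0 calls of edgeR do not show that levels were equal. Groups did not overlap for 1 of the 10 genes, Os03g0291500, against 17.7% of all tested genes. Without OsWRKY65-2 replicate 3 this held for 2 of the 10, Os03g0291500 below and Os06g0265000 above WT, against 28.4% of all tested genes. Of the 10 genes 7 had a positive and 3 a negative log2 fold change, with a median of 0.36 beside -0.01 over all tested genes. Without OsWRKY65-2 replicate 3, edgeR called 0.0770% of 24677 genes in either direction, 0.0527% higher and 0.0243% lower, and of the 10 genes it called 0 higher and 1 lower, Os03g0291500. Since the list was drawn up with this comparison known, nothing is read from these counts.

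**Figure D4:**
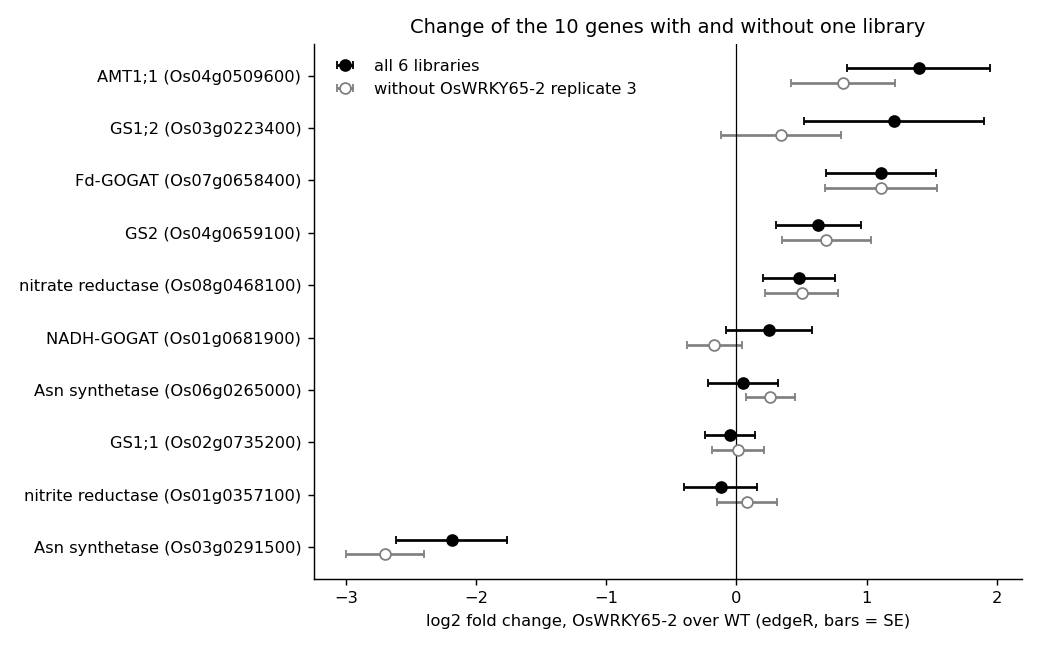
Log2 fold change of the 10 genes (edgeR, OsWRKY65-2 over WT, bars = SE) with all 6 libraries (filled) and without OsWRKY65-2 replicate 3 (open). Os03g0291500 is at -2.19 and -2.70, while GS1;2 moves between 1.21 and 0.34 and NADH-GOGAT between 0.25 and -0.17.

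To set these genes beside the rest of the pathway, 52 other nitrogen genes were taken by their annotation, of which 37 passed the filter on low counts and 7 had no count in any library. By edgeR 0 of the 37 were called higher and 0 lower in OsWRKY65-2, as over all genes. On simulated data this fit did not call planted changes either, so its 0 calls say nothing about these genes. The unadjusted p was under 0.05 for 2 higher and 0 lower, and DESeq2 called 1 higher and 0 lower. The median log2 fold change was 0.16 (23 positive and 14 negative) beside -0.01 over all tested genes, and 5 of the 37 had every OsWRKY65-2 library above every WT library, against 7.16% of all tested genes. For 0 of the 37 was every OsWRKY65-2 library below WT, against 10.5% of all tested genes. Without OsWRKY65-2 replicate 3 the split was closer to even: of 39 tested genes 21 were positive and 18 negative, with a median of 0.11 beside 0.02 over all tested genes. Then 8 of the 39 lay above WT in every library, against 14.5% of all tested genes, and 3 lay below, against 13.9%, with 0 called by edgeR, 3 higher and 3 lower at an unadjusted p under 0.05, and 1 higher and 1 lower called by DESeq2.

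Other copies of the listed enzymes were mostly at lower levels. The nitrite reductase gene Os02g0765900 was at 22.1, 10.9 and 3.48 CPM in OsWRKY65-2 and at 1.84, 2.05 and 3.33 CPM in WT. Every OsWRKY65-2 library lay above WT, replicate 3 by little, and the log2 fold change was 2.30 ± 0.72 (SE, adjusted p = 0.763, edgeR), or 2.74 ± 0.43 without OsWRKY65-2 replicate 3 (adjusted p = 0.115, edgeR). It was the gene called by DESeq2 (adjusted p = 0.0304). It held 7.14%, 3.68% and 2% of nitrite reductase TPM over 3 genes in OsWRKY65-2 and 0.842%, 0.692% and 1.01% in WT, so that Os01g0357100 remained the main form, while the third copy, Os01g0357500, averaged 0.95 ± 0.267 CPM in OsWRKY65-2 and 1.67 ± 0.618 CPM in WT (SD, n = 3 each).

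The nitrate reductase gene Os02g0770800, annotated to use NADH or NADPH, was at 15.2, 11 and 26.3 CPM in OsWRKY65-2 and at 0.56, 6.63 and 7.43 CPM in WT. All of its OsWRKY65-2 libraries lay above WT, and edgeR gave a log2 fold change of 1.82 ± 0.90 with an adjusted p of 0.764, or 1.41 ± 0.80 without OsWRKY65-2 replicate 3 (adjusted p = 0.573, edgeR). The copy Os08g0468700 was at 60.1 ± 6.55 CPM in OsWRKY65-2 and 48.7 ± 18.6 CPM in WT (SD, n = 3 each), and edgeR gave a log2 fold change of 0.30 ± 0.31 with an adjusted p of 0.87, or 0.32 ± 0.31 without OsWRKY65-2 replicate 3. The NADH-dependent glutamate synthase Os05g0555600, annotated for remobilization of nitrogen in senescing organs, was at 162.2, 121.2 and 147.4 CPM in OsWRKY65-2 and at 192.4, 143.2 and 211.7 CPM in WT. Its groups overlapped (log2 fold change -0.34 ± 0.23, SE, adjusted p = 0.808, edgeR, or -0.37 ± 0.24 without OsWRKY65-2 replicate 3). The remaining glutamate synthase copy, Os04g0490000, stayed below 3 CPM in every library.

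Among enzymes that use the glutamate and ammonium so formed, 5 alanine aminotransferase genes were tested, and 2 of them had log2 fold changes above 1. Os07g0108300 was at 1980.7, 936.8 and 1838 CPM in OsWRKY65-2 and at 451.3, 519.7 and 1040.6 CPM in WT, which is the order of libraries also seen in Fd-GOGAT (log2 fold change 1.24 ± 0.45, SE, adjusted p = 0.763, edgeR, or 1.12 ± 0.44 without OsWRKY65-2 replicate 3). Os10g0390500, annotated for starch synthesis in developing seeds, was at 99.2, 85.2 and 426.2 CPM in OsWRKY65-2 and at 61.7, 97.4 and 74.6 CPM in WT, so that replicate 3 alone stood out. Its log2 fold change was 1.38 ± 0.67 (SE, adjusted p = 0.764, edgeR) and 0.24 without that library. The other alanine aminotransferase genes, Os03g0183600, Os07g0617800 and Os10g0390600, had log2 fold changes of 0.03, 0.29 and -0.47, or 0.60, 0.48 and 0.11 without OsWRKY65-2 replicate 3. The glutamate dehydrogenase gene Os04g0543900, whose enzyme can release ammonium from glutamate, was at 36.8, 41.7 and 82.3 CPM in OsWRKY65-2 and at 64.4, 89.1 and 63.4 CPM in WT. OsWRKY65-2 replicates 1 and 2 lay below WT and replicate 3 within it (log2 fold change -0.43 ± 0.36, SE, adjusted p = 0.843, edgeR). Without OsWRKY65-2 replicate 3 it was at -0.88 ± 0.22 (adjusted p = 0.246 by edgeR and 0.0183 by DESeq2). The glutamate dehydrogenase gene Os03g0794500 had a log2 fold change of 0.53 ± 0.33, or 0.72 ± 0.28 without that library (adjusted p = 0.793 and 0.422, edgeR), and Os07g0238700 had -0.19, or -0.26 without it. These aminotransferase and dehydrogenase genes were chosen for mention after their values were seen.

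Transcripts of most high-affinity nitrate uptake genes were not detectable at this depth. NRT2 genes Os02g0112100 and Os02g0112600 and their partner Os02g0595900 had 0 counts in all libraries, as had the ammonium transporter Os02g0620500. The high-affinity nitrate transporter gene Os01g0547600 had 19 counts in OsWRKY65-2 replicate 1, 2 counts in WT replicate 3 and 0 counts elsewhere. Of 13 uptake genes 5 passed the filter on low counts, 4 with a positive and 1 with a negative log2 fold change and a median of 1.24. With OsWRKY65-2 replicate 3 left out, 6 were tested, 4 positive and 2 negative, and the median was 0.32. The median of 1.24 was the value of the ammonium transporter gene Os02g0620600 (SE 1.49, edgeR). It was at 1.15, 2.57 and 0.481 CPM in OsWRKY65-2 and at 0, 0.703 and 0.934 CPM in WT, with overlapping groups. The largest value, 2.62 ± 1.31 (SE, edgeR), was that of Os01g0831300, which was highest in OsWRKY65-2 replicate 3 at 12.5 CPM. In the other libraries Os01g0831300 was at 0.28 to 3.46 CPM, with overlapping groups. The uptake gene that was negative with all libraries, the ammonium transporter gene Os03g0838400, was at 0, 0 and 1.87 CPM in OsWRKY65-2 and at 8.77, 1.56 and 0 CPM in WT, with overlapping groups. For it edgeR gave -2.33 ± 2.42 on the log2 scale with an adjusted p of 0.875, or -5.51 ± 1.88 without OsWRKY65-2 replicate 3 (adjusted p = 0.381, edgeR). The ammonium transporter gene Os05g0468700 (AMT2;1) was at 15.1, 14.5 and 48.9 CPM in OsWRKY65-2 and at 9.57, 10 and 12.1 CPM in WT. Every OsWRKY65-2 library lay above WT, with replicate 3 highest, and edgeR gave a log2 fold change of 1.30 ± 0.54 with an adjusted p of 0.763, or 0.48 without that library. The uptake genes given with a fold change were named after their values were seen. Of 7 tested genes annotated for the molybdenum cofactor, siroheme or a cofactor of nitrate reductase, 5 had a positive and 2 a negative log2 fold change, with a median of 0.18. Without OsWRKY65-2 replicate 3 the direction turned, with 3 positive, 4 negative and a median of -0.04. The 7 include the molybdenum cofactor sulfurase gene Os06g0670000 (0.10 with all libraries), which is annotated for abscisic acid synthesis and disease resistance and not for nitrate reductase.

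**Figure D5:**
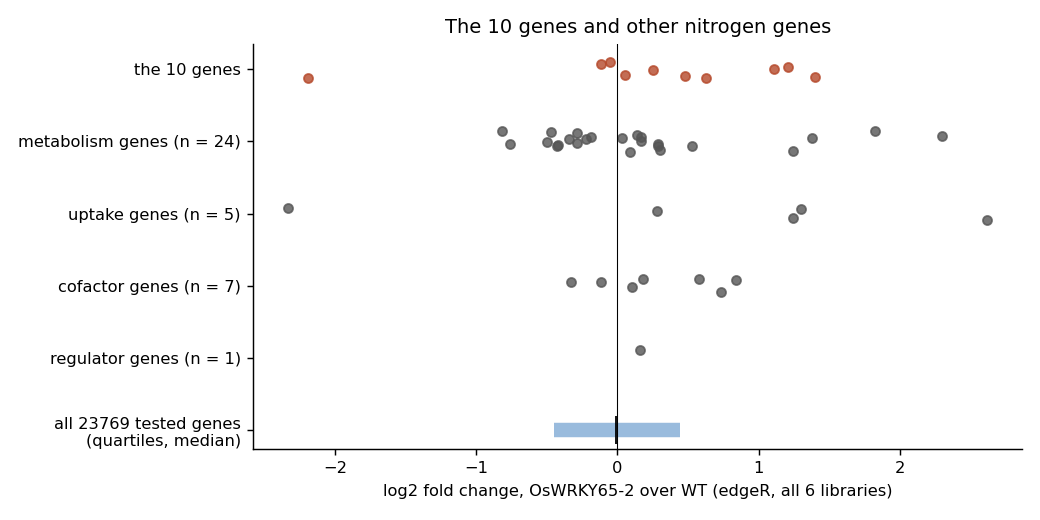
Log2 fold changes (edgeR, OsWRKY65-2 over WT, all 6 libraries) of the 10 genes and of 37 other nitrogen genes in 4 groups, 1 point per gene, with the quartiles and median of all 23769 tested genes as the bar at the bottom. The 10 genes spread from -2.19 to 1.40, beside a median of -0.01 for all genes.

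The annotated genes most like Os03g0291500 were ranked by Pearson's r of log2(CPM + 1) among 7767 genes with at least 20 CPM, over the 5 libraries without OsWRKY65-2 replicate 3, as a description. With so few libraries, 92 genes had r above 0.95. The first 5 were Os09g0543100, a predicted protein (r = 0.9962), Os11g0659500, an acyl-ACP thioesterase (r = 0.9944), the BRCT domain gene Os07g0689950 (r = 0.9943), Os10g0444400 of the Appr-1-p processing family (r = 0.9937) and the tRNA-binding arm gene Os08g0505200 (r = 0.9925). Over all 6 libraries r was 0.785, 0.438, 0.402, 0.916 and 0.578 in the same order, so the likeness was lower with OsWRKY65-2 replicate 3 included. Of these, Os10g0444400 was at 47.6, 51 and 47.3 CPM in OsWRKY65-2 and at 69.4, 68 and 74.5 CPM in WT, a smaller difference than that of Os03g0291500.

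For the nitrate reductase Os08g0468100, 195 genes had r above 0.95. The first 5 were Os08g0200300, the photosystem II 10 kDa polypeptide (r = 0.9993 over 5 libraries), Os03g0271100, the sigma factor SIG2B, which directs plastid transcription (r = 0.9989), Os06g0694500, annotated as similar to a nitrogen fixation protein (r = 0.9976), Os02g0731600, a threonine endopeptidase (r = 0.9964), and Os07g0558500, THYLAKOID FORMATION1 (r = 0.9953). Over all 6 libraries r lay between 0.848 and 0.995. SIG2B was at 54.2, 31.4 and 41.7 CPM in OsWRKY65-2 and at 16.3, 15.8 and 37.2 CPM in WT, with WT replicate 3 between the OsWRKY65-2 values as for nitrate reductase.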

How the data were processed

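Leaf polyA RNA was sequenced in 3 OsWRKY65-2 and 3 WT libraries. The authors' tools, per the submitters' processing notes, were StringTie 2.1.3b, HISAT2 2.1.0, Trimmomatic and bcl2fastq 2.20.0, on build IRGSP-1.0, in no stated order. How reads were counted, and whether by strand, is not given here, so reads of overlapping or antisense genes may be mixed. The deposited read counts are taken as estimated counts, already whole, so no rounding was needed. The deposited FPKM values, scaled by the authors to length and depth, were not used. The deposited TPM sum to 1000000 in each library and served for levels between genes and 2 alternatives.

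The test was edgeR 4.0.16 (R 4.3.3), robust quasi-likelihood, with TMM, a filterByExpr minimum of 10 counts, genotype as the sole term, Benjamini-Hochberg adjustment over all tested genes, and prior count 2. The SE is the absolute log2 fold change divided by the square root of F. The script was tested on simulated data. There the fit with all 6 libraries did not call the planted changes, while the fit without OsWRKY65-2 replicate 3 called most of them. Alternatives were DESeq2 1.42.0, limma 3.58.1, other factors and filters, a replicate block and left-out libraries. The members and lists were chosen with earlier results of these data known. Other nitrogen genes came from text patterns on the annotation. Of 87 matches beside the 10 genes, 35 were removed after reading the annotations, as accidental matches or matches to a domain. They include Os09g0560700 and Os09g0560800, annotated with the C-terminal domain of molybdenum cofactor sulfurase, while the sulfurase gene Os06g0670000 was kept. By rule, called genes and copies of the listed enzymes with a mean of at least 1 CPM were named from that list, and the 5 annotated genes most like each of Os03g0291500 and Os08g0468100. Others named were chosen after their values were seen. Of the markers listed, 3 were dropped because their annotation did not name the product. Deviations of same-numbered OsWRKY65-2 and WT libraries correlated weakly across genes (r of -0.0581 to 0.0498), which cannot show whether they were paired. No sequences were used here.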

Additional observations from a re-analysis of the deposited data

How the results depend on the processing

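With all 6 libraries, counts of genes called higher and lower, 0 and 0 in edgeR, were 419 and 303 in DESeq2. They were 2 and 0 in limma-trend on log2(TPM + 1) or log2(TPM + 0.1), and also in edgeR without the filter. Other factors, the stricter filter, limma-voom and the replicate block left 0 and 0. Over the fits with a library left out, the range was 0 to 13 higher and 0 to 6 lower, all calls coming from omitting OsWRKY65-2 replicate 3. Without that library the counts were 13 and 6 with DESeq2 size factors, 7 and 1 with the replicate block, 274 and 426 in DESeq2, and 5 and 2 in limma-voom. The cause was not tested. Of the 52 other nitrogen genes, DESeq2 called 1 higher, and without OsWRKY65-2 replicate 3 it called 1 higher and 1 lower (Os02g0765900 and Os04g0543900). Os03g0291500 was among the genes called lower in 5 of 19 alternatives, DESeq2 and, without OsWRKY65-2 replicate 3, edgeR with TMM or size factors, DESeq2 and limma-voom, but not with the replicate block. It was listed with these values known, so the calls support nothing. For the other nitrogen genes, leave-one-out edgeR fits called 0. Deviations of same-numbered libraries from their group means correlated across genes at r of 0.0498, -0.0581 and -0.00648. With 3 libraries per group, these values cannot show whether same-numbered libraries were grown or prepared together.

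Os03g0291500 stayed lower in all 19 alternatives, at -2.71 to -1.93. GS1;2, GS2, Fd-GOGAT, nitrate reductase and AMT1;1 stayed positive in all 19, at 0.33 to 1.79, 0.42 to 1.05, 0.75 to 1.40, 0.22 to 0.78 and 0.71 to 1.78. Os06g0265000, GS1;1, NADH-GOGAT and nitrite reductase changed sign in 6, 5, 7 and 5 of them. Library totals alone moved the median of all genes to -0.19, and the TPM fits moved it to -0.28 and -0.34. Relative to those medians Os03g0291500 was at -2.17, -2.22 and -2.17.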
